A study of Mus musculus with 6 samples.

Results

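The enteroendocrine cells of the gut, its hormone-producing cells, are laid down by a cascade of transcription factors, and 8 of these were followed in jejunal crypt epithelium of mice labelled Sox9-deficient: Neurog3, Neurod1, Pax4, Pax6, Nkx2-2, Isl1, Rfx6 and Insm1. Every probe set to which the platform annotation gives 1 gene symbol equal to one of these names was taken, which gave 15 probe sets of 7 genes, out of 45037 probe sets once array controls were removed. Rfx6 had no such probe set and was not analysed here. The series compares 3 Sox9-deficient mice (KO 1 to KO 3) with 3 wild-type littermates (WT 1 to WT 3), all 3 months old and of strain C57BL/6, with 1 single-colour array for each mouse. The form of the Sox9 mutation and whatever drives it are, like the sex of the mice, not given in the sources used here.

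Neurog3, a basic helix-loop-helix factor, is switched on briefly in a few crypt progenitors and commits them to the endocrine fate; Notch signalling through Hes1 holds it back in their neighbours. Neurod1, Insm1, Nkx2-2, Isl1, Pax4, Pax6 and Rfx6 act below it, and together they set which hormones a cell will make. In bulk epithelium such rare cells give a small part of the RNA, and fewer cells of a type cannot be told apart from less RNA in each.

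Basic helix-loop-helix factors such as Neurog3 and Neurod1 bind E-boxes, and SOX factors bind sequences with a core of the ACAAT kind. Promoter windows of 4 members are shown, Neurog3 as the head of the cascade and Neurod1, Nkx2-2 and Isl1 because their signal was highest on WT 3. Neurog3 (1432034_at) and Insm1 (1455865_at) were also highest there, but Insm1 had no promoter window. The windows hold the 250 bases before the RefSeq transcription start (build GRCm38.p6, read along the gene's strand). They lie at chr10:62132840-62133089 (plus strand, Neurog3), chr2:79456637-79456886 (minus strand, Neurod1), chr2:147186403-147186652 (minus strand, Nkx2-2) and chr13:116309689-116309938 (minus strand, Isl1). Capitals mark CANNTG and ACAAT on either strand.
Neurog3: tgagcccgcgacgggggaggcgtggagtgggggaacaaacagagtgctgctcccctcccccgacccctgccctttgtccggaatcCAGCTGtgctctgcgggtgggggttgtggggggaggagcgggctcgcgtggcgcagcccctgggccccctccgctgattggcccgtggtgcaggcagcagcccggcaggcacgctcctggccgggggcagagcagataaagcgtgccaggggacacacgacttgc
Neurod1: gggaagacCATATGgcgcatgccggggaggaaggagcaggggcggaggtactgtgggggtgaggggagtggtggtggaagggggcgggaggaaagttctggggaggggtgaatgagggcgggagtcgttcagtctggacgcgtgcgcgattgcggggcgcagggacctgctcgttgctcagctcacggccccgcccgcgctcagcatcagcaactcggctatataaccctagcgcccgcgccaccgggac
Nkx2-2: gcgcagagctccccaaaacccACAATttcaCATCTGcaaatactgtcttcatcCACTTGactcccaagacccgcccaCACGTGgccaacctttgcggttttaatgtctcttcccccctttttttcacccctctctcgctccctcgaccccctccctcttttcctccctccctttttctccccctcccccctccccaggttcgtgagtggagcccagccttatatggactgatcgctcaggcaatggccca
Isl1: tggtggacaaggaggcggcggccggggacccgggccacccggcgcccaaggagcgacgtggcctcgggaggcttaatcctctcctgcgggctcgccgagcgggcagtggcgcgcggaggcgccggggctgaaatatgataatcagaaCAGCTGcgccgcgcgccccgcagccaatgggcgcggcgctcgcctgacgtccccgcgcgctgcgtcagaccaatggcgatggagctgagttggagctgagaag
Nkx2-2 held 3 CANNTG matches, and Neurog3, Neurod1 and Isl1 held 1 each. Of all 32851 promoter windows of this length, 66.2% held at least 1. The form CAGATG, which is contained in CANNTG, stood in the Nkx2-2 window alone among these 4, as did ACAAT. Of all windows, 14.4% and 27.7% held them. ACAAT also stood in member windows not shown, with 2 matches for Rfx6 and 1 in the first Pax6 window. These matches describe letters and say nothing of binding.

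Several arrays stood apart in ways that bear on the members. The 3 Sox9 probe sets gave different pictures. On 1451538_at KO arrays read 2.44, 2.75 and 2.42, against 7.61, 5.96 and 5.84 on WT arrays (log2 intensity). On 1424950_at the sign was opposite, with 5.33, 6.34 and 5.76 on KO arrays, against 6.23, 5.38 and 2.68 on WT arrays and WT 3 the lowest. The dim 1433889_at differed by -0.10, KO minus WT. The groups were separated on the first alone; the position of the probe sets relative to the mutation is not given. The X-inactivation transcript Xist read 12.3 to 13.4 on the 3 KO arrays and 13.2 on WT 3, but 1.92 on WT 1 and 3.72 on WT 2, where instead the Y-linked Eif2s3y, Kdm5d and Uty were bright. No KO array carried that Y-linked signal, so the main comparison of all 6 arrays is unbalanced in it. Differences that go with sex and those that go with genotype can be told apart there only through WT 3. KO 2 carried pancreatic enzyme transcripts, with Cela2a at 12.3 and Cpa1 at 10.1, against at most 2.47 for each on the other arrays; the islet hormone gene Ins2 lay at 2.11 there and at no more than 2.13 anywhere. The 3' minus 5' difference of the Gapdh control, a sign of RNA integrity, was 1.75 on WT 3 and 0.37 to 0.91 on the other 5. Crypt markers were present, with Olfm4 at 14.49 to 14.96 and Lyz1 at 15.6 to 16.6, and so were enterocyte genes such as Fabp1 at 15.96 to 16.42. Leukocyte genes were low on WT 1, with a list mean of 3.94 against 5.78 to 6.82 on the other arrays. Of the 15 markers of enteric neurons and glia on the array, cells that share several of these factors, all 15 lay under a mean of 4, and no single value passed 3.19.

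No change was detected in the 5 members of the cascade that could be tested, in a comparison that could call few changes. Sox9 probe set 1451538_at, with a difference of -3.93, itself had a limma adjusted p of 0.188. A lack of calls among the members therefore does not show that they were unchanged. Of the 15 probe sets, 8 reached a mean of 4 over the 6 arrays, the limit for testing, and stood for 5 genes: Neurog3, Neurod1, Nkx2-2, Isl1 and Insm1. None of the 8 passed an adjusted p of 0.05 in limma (0 higher, 0 lower), and 0 of 8 had an unadjusted p under 0.05. Over all 18108 probe sets tested, 0.011% passed the adjusted threshold and 3.62% the unadjusted one. The 8 had a median log2 difference, KO minus WT, of -0.15, against 0.03 over all probe sets tested, and 7 of the 8 were below 0, where 46.1% of all tested probe sets were. Probe sets of 1 gene are not independent. With the brightest probe set of each gene, 4 of 5 were below 0 and the median was -0.17. The smallest adjusted p among the 8 was 0.999 in limma, so the sign of each is not established. Values below are log2 GCRMA intensities, and since probe sets differ in how well they capture their target, a level is compared between mice and not between genes.

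**Figure D1:**
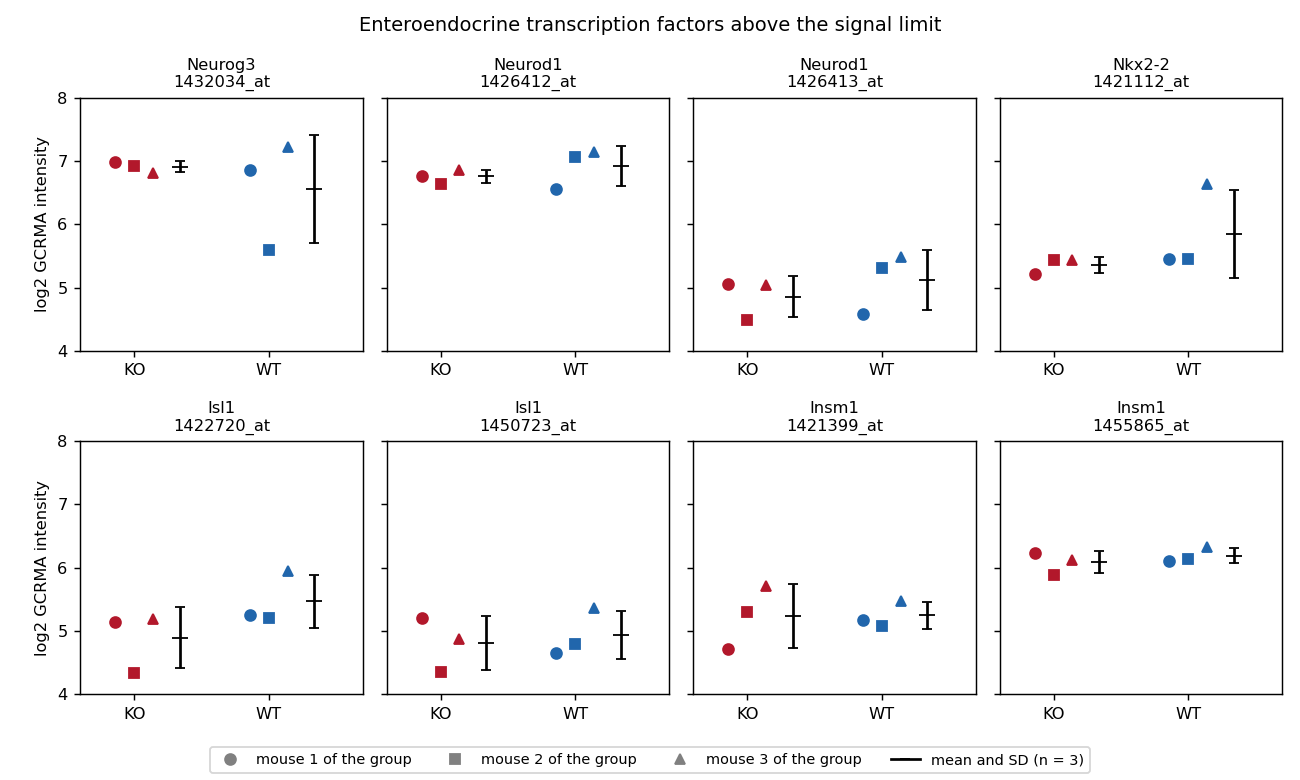
Log2 GCRMA intensity (vertical axis, from 4 to 8) of the 8 tested probe sets in KO and WT mice, with 1 point for each mouse and the mean with its SD (n = 3) beside it. WT 2 lies at 5.59 for Neurog3, apart from the other 5 arrays, and WT 3 is the highest array in every panel except that of the dimmer Insm1 probe set.

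Neurog3, the factor that starts the endocrine programme, read 6.99, 6.92 and 6.82 on KO 1 to KO 3, against 6.86, 5.59 and 7.23 on WT 1 to WT 3 (probe set 1432034_at). The mutants lay within a narrow band, and the WT arrays reached both above and below it. KO mice averaged 6.91 ± 0.09 and WT mice 6.56 ± 0.86 (SD, n = 3 per genotype), so that the difference was 0.35 ± 0.42 (SE; limma adjusted p = 0.999). The 95% interval ran from 1.57-fold lower to 2.55-fold higher. WT 2 decided the sign: without it the difference was -0.13, and without WT 3 it was 0.69. Genes of crypt stem and cycling cells were also low on WT 2, with a median deviation of -0.85, where the other 5 arrays lay between 0.05 and 0.41; whether this had a part in the Neurog3 value was not tested. The second Neurog3 probe set, which the annotation ties to the RefSeq transcript, read 2.40 to 2.50 on every array (1422312_a_at). The 2 probe sets of Neurog3 therefore gave different pictures of its level, and the sources used here do not say which parts of the transcript they cover.

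Neurod1, a direct target of Neurog3 that carries differentiation forward, read 6.77, 6.64 and 6.86 on KO arrays, against 6.56, 7.06 and 7.15 on WT arrays (1426412_at). WT 1 lay below all 3 mutants and the other 2 WT arrays above them. The difference was -0.17 ± 0.21 (SE; limma adjusted p = 0.999), with a 95% interval from 1.60-fold lower to 1.27-fold higher. The dimmer probe set read 5.05, 4.48 and 5.04 in KO and 4.58, 5.31 and 5.48 in WT (1426413_at). It kept the same order among the WT arrays, with WT 1 lowest and WT 3 highest, and differed by -0.27 ± 0.30 (SE; limma adjusted p = 0.999). The distance between the 2 probe sets averaged 1.90 ± 0.23 in KO mice and 1.80 ± 0.16 in WT mice (SD, n = 3 per genotype; exact permutation test, two-sided, p = 0.6).

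Insm1, a zinc finger repressor needed for endocrine cells to mature, was the member whose groups were closest. Its brighter probe set read 6.23, 5.89 and 6.13 in KO, against 6.10, 6.14 and 6.32 in WT (1455865_at), all 6 within 0.43 log2 units. The difference was -0.10 ± 0.18 (SE; limma adjusted p = 0.999), and its 95% interval, from 1.45-fold lower to 1.25-fold higher, was the narrowest among the tested members. The other probe set read 4.71, 5.29 and 5.72 in KO, against 5.18, 5.07 and 5.47 in WT (1421399_at). Here the mutants spread wider than the controls and held both the lowest and the highest value, so that the difference was -0.003 ± 0.29 (SE; limma adjusted p = 0.9999); it was 0.26 without KO 1 and -0.24 without KO 3.

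Nkx2-2, a homeobox factor that steers the choice between hormones, read 5.21, 5.43 and 5.44 on KO arrays, against 5.45, 5.45 and 6.64 on WT arrays (1421112_at). The groups did not overlap, but KO 3 and WT 1 were only 0.013 apart, and the difference came from WT 3. KO mice averaged 5.36 ± 0.13 and WT mice 5.85 ± 0.69 (SD, n = 3 per genotype), and the difference was -0.49 ± 0.35 (SE; limma adjusted p = 0.999). The 95% interval ran from 2.51-fold lower to 1.27-fold higher. Without WT 3 the difference was -0.09.

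Isl1, a LIM homeobox factor needed by several hormone-producing cell types of the gut, had a negative difference of unlike size on each of its 2 probe sets. One read 5.14, 4.33 and 5.19 in KO, against 5.24, 5.21 and 5.95 in WT (1422720_at), with all KO arrays lower and a gap of 0.018 between the groups. The difference of -0.58 ± 0.33 (SE; limma adjusted p = 0.999) was the largest among the tested members and became -0.30 without KO 2 and -0.34 without WT 3. The other read 5.20, 4.35 and 4.87 in KO and 4.65, 4.78 and 5.36 in WT (1450723_at). There KO 1 and KO 3 both lay above WT 1 and WT 2, and the difference was -0.13 ± 0.30 (SE, limma adjusted p = 0.999). On both, KO 2 was the lowest array and WT 3 the highest. The first minus the second averaged 0.08 ± 0.21 in KO mice and 0.53 ± 0.10 in WT mice (SD, n = 3 per genotype), and the exact permutation test gave p = 0.1, two-sided, the smallest that 3 mice against 3 can give. Nkx2-2 and this Isl1 probe set were the 2 of 8 with separated groups, both lower in KO; over all probe sets tested 9.12% were separated, 4.03% with KO lower.

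Pax4 and Pax6, paired-box factors that favour some endocrine subtypes over others, gave no signal above that of genes the tissue should lack. Together with the second Neurog3 probe set, their 7 probe sets read 2.03 to 2.77 on the 6 arrays, within or below the 2.25 to 3.19 of the neuron and glia markers, and were not tested. Pax4 read 2.66, 2.27 and 2.26 in KO and 2.29, 2.29 and 2.28 in WT. KO 1 was the highest there, and it was also highest on the Pax6 probe set 1437816_at, at 2.42 against 2.13 to 2.16 elsewhere. The 5 Pax6 probe sets differed between KO and WT by at most 0.07. GCRMA draws dim probe sets to a floor, so a change of either gene was not detectable here.

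**Figure D2:**
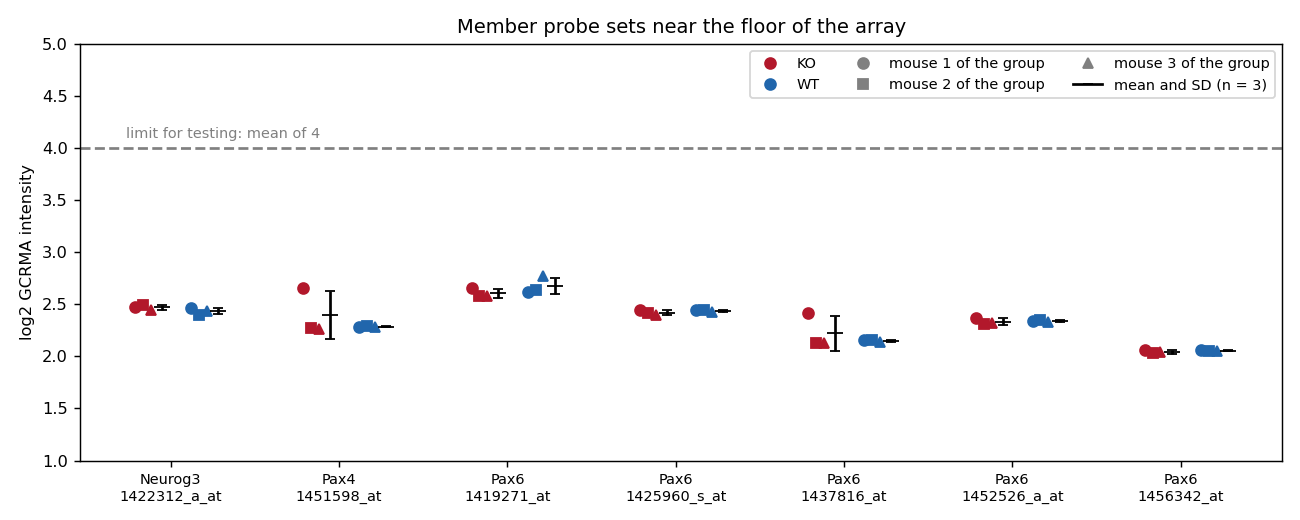
Log2 GCRMA intensity of the 7 member probe sets below the limit for testing (dashed line at 4), with 1 point for each mouse and the mean with its SD (n = 3). All values lie between 2.03 and 2.77, and KO 1 stands off its group for Pax4 and for 1 Pax6 probe set.

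Mouse by mouse, WT 3 held the highest value on 7 of the 8 probe sets and KO 2 the lowest on 4. Over all probe sets tested, WT 3 was highest on 14.8% and KO 2 lowest on 12.8%. The median deviation of the 8 from their own means was 0.01, -0.22 and 0.02 on KO 1 to KO 3, against -0.11, -0.04 and 0.49 on WT 1 to WT 3, so that WT 1 and WT 2 lay among the mutants. The median difference of -0.15 was -0.05 without WT 3, -0.06 without KO 2 and 0.07 without both, but -0.31 without WT 1, -0.25 without KO 1, -0.23 without KO 3 and -0.15 without WT 2. Without WT 3, Xist-positive KO arrays are set against WT arrays with Y-linked signal alone, so that Y-linked signal and genotype cannot be told apart there. Set against WT 3 alone, the only WT array with Xist signal like that of the mutants, the 8 differed by a median of -0.47, from -0.24 for Insm1 to -1.28 for Nkx2-2, where the median over all probe sets was 0.03. Since WT 3 was the highest array on 7 of the 8, the direction there restates that observation and adds no support to it. That control is a single mouse, taken to vary like the KO mice, and 0 of 8 passed in limma (smallest adjusted p = 0.894). Adding Y-linked signal to the fit as a term gave a median of -0.46, and adding the Gapdh end difference gave -0.05, with 0 of 8 called under each. The first term parts WT 1 and WT 2 from all other arrays, so its difference rests mainly on KO against WT 3. The second is largest on WT 3 and takes up much of what that array adds. Neither is separate from the comparisons with and without WT 3 given above. Whether the pancreatic transcripts on KO 2 had a part in its low values was not tested. The comparison with WT 3 alone and that without both KO 2 and WT 3 were chosen after the data were seen.

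**Figure D3:**
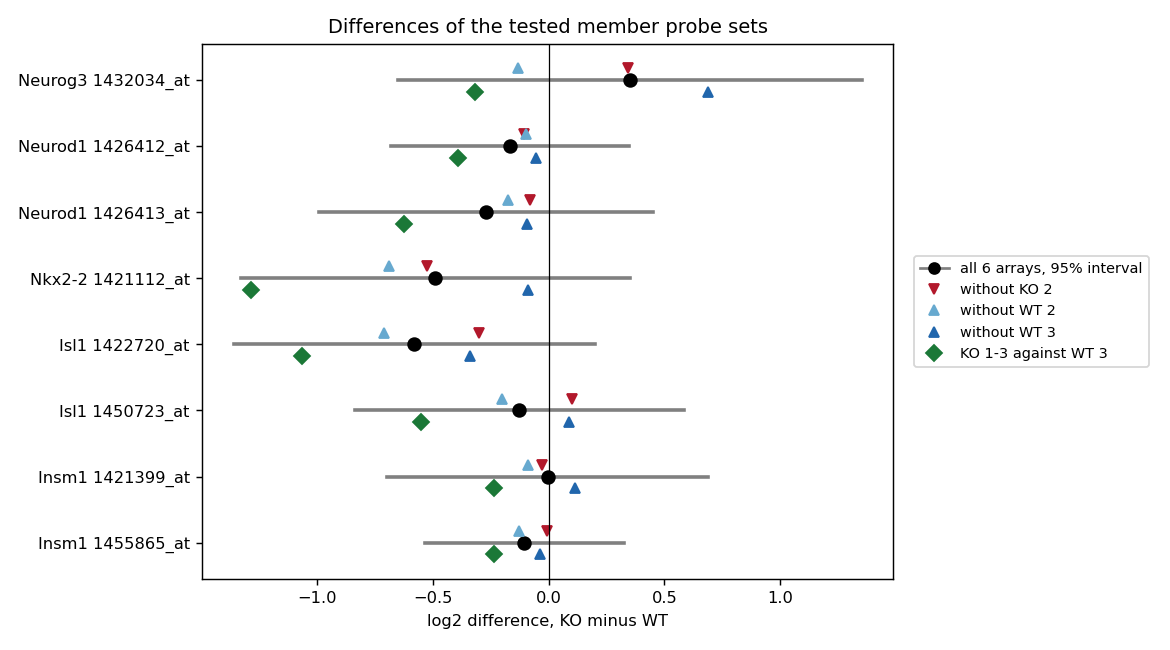
Log2 difference, KO minus WT, of the 8 tested probe sets, with its 95% interval from limma over all 6 arrays, and the difference when KO 2, WT 2 or WT 3 is left out or when WT 3 is the only control. Every interval includes 0; the Neurog3 value lies at -0.13 without WT 2, and the Nkx2-2 value at -0.09 without WT 3 and at -1.28 against WT 3 alone.

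Above the cascade, the genes of secretory fate and Notch signalling had 0 of 19 probe sets past the adjusted threshold in limma. Of 13 genes measured, 3 had an unadjusted p under 0.05 and the same 3 were separated, with KO lower on all arrays: Atoh1, Gfi1 and Rbpj. Among all tested probe sets, 3.62% had an unadjusted limma p under 0.05 and 4.03% were separated with KO lower. Atoh1, which opens the secretory lineage from which Neurog3-positive progenitors come, read 8.35, 8.08 and 8.23 in KO, against 9.05, 8.75 and 9.14 in WT. Gfi1, which holds goblet and Paneth progenitors away from the endocrine fate, read 4.91, 4.55 and 5.29 in KO, against 5.61, 5.64 and 6.06 in WT. Rbpj, the DNA-binding partner of Notch, read 7.66, 7.76 and 7.63 in KO, against 8.01, 8.02 and 8.37 in WT. Their gaps between groups were wider than those of Nkx2-2 and Isl1, although none passed over all probe sets (limma adjusted p at least 0.937). The Notch effector Hes1 read 9.54, 8.87 and 9.41 in KO, against 8.67, 8.32 and 9.89 in WT, with WT arrays on both sides of the mutants. Lfng, which modifies Notch, differed by 0.55 (limma adjusted p = 0.999), with WT 2 lowest at 6.02. The 13 had a median difference of 0.01, which was -0.26 without WT 2, -0.14 without KO 1, -0.05 without KO 3 and 0.20 without WT 3.

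Other regulators of endocrine cells gave the same count, 0 of 15 probe sets called in limma. Of 30 genes listed, 23 were on the array under 1 symbol and 9 were measured, with 5 above and 4 below 0, a median of 0.04 (-0.15 without WT 2 and -0.02 without KO 3) and 0 with an unadjusted p under 0.05. Id2, an inhibitor of helix-loop-helix factors, read 10.71, 10.49 and 10.05 in KO, against 10.82, 10.80 and 10.97 in WT, lower without overlap. Tox3 read 9.92, 9.58 and 9.66 in KO, against 9.54, 9.41 and 9.39 in WT, higher without overlap, as 5.09% of all tested probe sets were. Mnx1 differed by 1.03 ± 0.46 (SE; limma adjusted p = 0.999), with WT 2 lowest at 3.13, and Foxa1, a forkhead factor, by -0.23. Pdx1, which marks the pancreas and duodenum, read 7.50 on KO 2 and 2.62 to 2.76 on the other arrays.

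Below the cascade, hormone and granule genes showed that endocrine cells were sampled, with Chgb at 11.3 to 12.5 and Gip at 11.96 to 12.95. Of 24 genes listed 19 were measured, and 0 of 19 probe sets were called in limma; the median difference was -0.26, 13 lay below 0 and 3 had an unadjusted p under 0.05. That median was -0.45 without WT 1, -0.15 without WT 2, -0.53 against WT 3 alone and 0.02 without both KO 2 and WT 3. Among all tested probe sets, 3.62% had an unadjusted limma p under 0.05 and 4.03% were separated with KO lower. The 3 hormone and granule genes under 0.05 were also separated, KO lower. They were Cck, Gcg and Slc18a1, the vesicular monoamine transporter of serotonin cells, which read 5.70, 5.20 and 5.75 in KO, against 5.99, 6.12 and 6.37 in WT. Cck read 9.13, 8.73 and 8.50 in KO and 9.23, 9.66 and 9.60 in WT. Gcg read 9.55, 8.65 and 10.13 in KO and 10.34, 10.53 and 10.74 in WT. Chga, the granule protein chromogranin A, read 8.26, 8.10 and 8.65 in KO, against 8.21, 8.66 and 9.22 in WT, with overlap. Pcsk1, a prohormone convertase, differed by 0.47 and Sct, the secretin gene, by 0.00. The list deviated by -0.10, -0.41 and -0.08 on KO 1 to KO 3 and by -0.32, 0.30 and 0.34 on WT 1 to WT 3. KO 2 was thus the lowest and WT 3 the highest array for these genes as for the members, whereas WT 2, which was high here, was not so for the members.

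**Figure D4:**
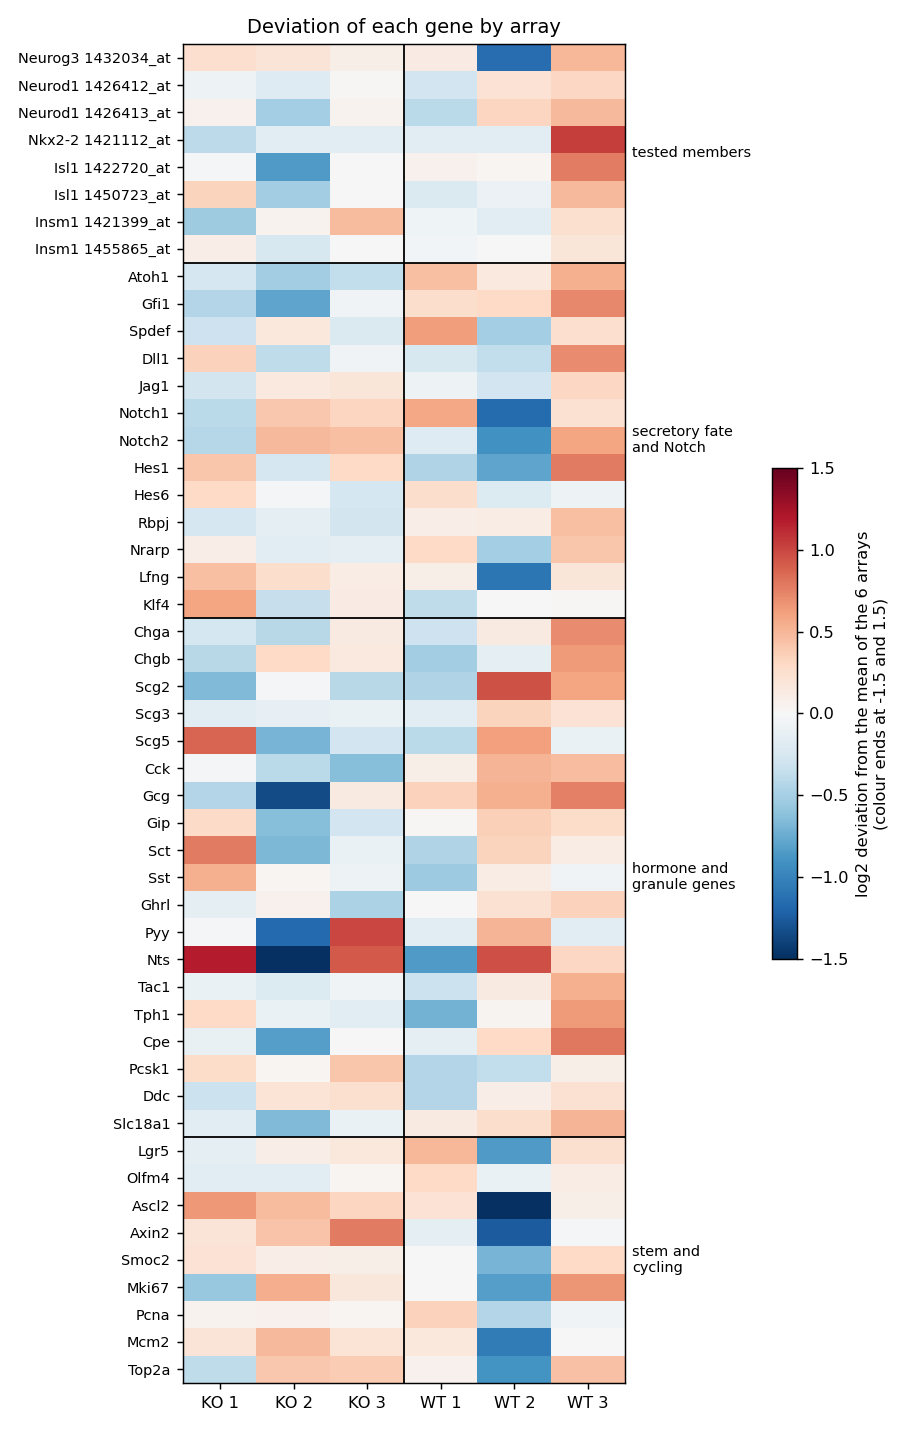
Log2 deviation of each gene from its mean over the 6 arrays (colour, from -1.5 in blue to 1.5 in red) for the 8 tested member probe sets, the 13 measured genes of secretory fate and Notch signalling, 19 hormone and granule genes and 9 stem and cycling genes, with KO arrays left of the WT arrays. The WT 3 column is red for most members and many hormone genes, and the WT 2 column is blue for Neurog3 and the stem and cycling genes.

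Where a member varied by at least 1 log2 unit over the arrays, the genes of most similar pattern were sought among 9678 genes by the root mean square difference of their deviations over the 6 arrays. For Neurog3 these were Tmem131l (0.099), Pogk (0.11) and Cenpn (0.12), each lowest on WT 2. For Nkx2-2 they were Zbtb34 (0.16), Cbs (0.16) and Nadk2 (0.17), each highest on WT 3. For the 2 Isl1 probe sets they were Tle1 (0.13), the granule enzyme gene Cpe (0.15) and Proser2 (0.15), and Abi3 (0.094), Fbxl20 (0.12) and Sesn2 (0.13). For Insm1 (1421399_at) they were Npepps (0.041), Srcap (0.056) and Dab2ip (0.070), each lowest on KO 1 and highest on KO 3. With 6 arrays and so many genes, close matches are easily found, and they are given as a description.

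Lists for the other cells of the preparation moved in both directions, and no probe set of them was called in limma (0 in all 13 lists). Among all tested probe sets, 4.03% were separated with KO lower and 5.09% with KO higher. Paneth genes had a median difference of -0.74 over 6 measured (-0.92 to -0.65 with single arrays left out). Mmp7 (-4.71), Lyz1 (-0.75) and Itln1 (-0.58) were separated and lower in KO, and Nupr1 (-1.17) overlapped. Tuft genes had a median of 0.15 over 5 (0.03 without KO 2), but the tuft marker Dclk1 read 4.79, 4.82 and 4.82 in KO, against 6.94, 6.29 and 6.24 in WT (difference -1.68, limma adjusted p = 0.231). The other tuft genes of smallest p, Ltc4s (0.53), Plcg2 (0.24) and Trpm5 (0.15), overlapped. Goblet genes had a median of -0.17 over 9 (-0.02 without KO 2), where Sytl2 (-0.60) was separated and lower in KO and Zg16 (-0.18), Fcgbp (-0.32) and Clca1 (0.25) overlapped.

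Enterocyte genes had a median of 0.09 over 10, which turned to -0.04 without KO 3 and -0.06 without WT 1. Treh (0.77) and Apoa4 (0.82) were separated and higher in KO, while Alpi (0.95) and Apoa1 (0.12) overlapped. Stem and cycling genes had a median of 0.27 over 9, which turned to -0.10 without WT 2, the array on which they were lowest. It was -0.16 against WT 3 alone and -0.11 with Y-linked signal in the fit, settings that both rest mainly on WT 3 as the control. Axin2 (0.94), Ascl2 (0.97) and Mcm2 (0.59) were separated and higher in KO, and Olfm4 (-0.20) overlapped. Leukocyte genes had a median of 1.11 over 10 and 0.41 without WT 1. Ptprc (1.38) was separated by 0.017 and higher in KO, and Jchain (2.54), Cd79a (1.97) and Csf1r (2.24) overlapped. In mesenchyme and smooth muscle 13 of 14 genes lay under the limit and Vim differed by -0.38. Of the pancreatic list, Iapp and Cela2a were measured.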

How the data were processed

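Total RNA of jejunal crypts was hybridised to single-colour Affymetrix arrays. The authors deposited log2 intensities for 45101 probe sets, which they made with GCRMA, and also used limma, per the submitters' processing notes (no version or setting stated). GCRMA corrects background by probe sequence, normalizes arrays together and compresses dim values. All 6 columns belong to this series. Arrays carry no read depth, and 3 per group limits the precision.

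Controls (64 probe sets) were removed, and genes were named from GEO's platform annotation (932 probe sets with several symbols and 9160 with none were left unnamed). Those whose 6-array mean reached 4 (18108) entered the test of KO minus WT in limma (3.58.1; R 4.3.3; lmFit, then eBayes; 2 groups, two-sided), with Benjamini-Hochberg adjustment over all of them and a threshold of 0.05; the residual degrees of freedom were 4 and the prior 2.59. The fit was tested on simulated data. Lists use the brightest probe set of each gene. Whether the mice share a litter by number is not stated, and p-values describe the spread between these 6 mice. Same-numbered KO and WT arrays deviated with correlations of -0.05, -0.29 and 0.03, so numbers were not taken as pairs. The members and the 13 other lists were chosen with earlier results of these data known. Named genes are all members; in each other list up to 4 measured genes of smallest p and any whose groups did not overlap; Sox9, Atoh1, Chga and Sct in any case; and the 3 nearest patterns. Hes1, Chgb, Gip, Pdx1, Cpa1, Ins2, Fabp1, Retnlb and Muc2 fall outside this rule and were chosen after their values were seen. Promoters are from RefSeq (GRCm38.p6), where 6 of the 8 members matched.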

Additional observations from a re-analysis of the deposited data

How the results depend on the processing

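The members had 0 calls higher and 0 lower in limma under all 19 alternatives, 17 planned and 2 added after seeing the data (arrays with Xist signal only; without KO 2 and WT 3), and the smallest adjusted p of a tested member was 0.501 (Nkx2-2, Y-linked signal added to the fit). A replicate block cannot move a difference in this balanced design, so the median stays -0.15 by construction; it called 0 of them. Their median moved to -0.46 once Y-linked signal was added to the fit and to -0.47 on arrays with Xist signal only. Both of these settings rest mainly on WT 3 as the control, here and for single members below, and are not separate support. Without single arrays the median ran from -0.31 to -0.05. The sign turned with single arrays left out for Neurog3 (-0.13 to 0.69), Insm1 1421399_at (-0.24 to 0.26) and Isl1 1450723_at (-0.32 to 0.10). It turned for Neurog3 with Y-linked signal in the fit (-0.24) and on arrays with Xist signal only (-0.32), for Insm1 1421399_at with array weights (0.18) and for Isl1 1450723_at with the Gapdh end difference in the fit (0.10). Without both KO 2 and WT 3 it turned for Neurod1 (0.0046 on 1426412_at and 0.10 on 1426413_at), Insm1 (0.0876 on 1421399_at and 0.0585 on 1455865_at) and Isl1 1450723_at (0.31). The medians of the hormone, secretory, regulator, goblet, tuft, enterocyte, stem and leukocyte lists moved by over 1.5 times or turned sign with single arrays left out, as given beside each. The cause was not tested. Nkx2-2 and Isl1 1422720_at stayed negative under each alternative run on them. Over all probe sets the calls ran from 0 to 6 higher and from 0 to 10 lower, both highest without WT 3. Of the calls without WT 3, 5 were probe sets of Xist and Y-linked genes, as was 1 call without KO 2 and WT 3. Both settings compare Xist-positive KO arrays with WT arrays that carry Y-linked signal, so these calls cannot be ascribed to genotype. Signal over background limits the probe sets near the floor, which cannot show a change.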

Other observations

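KO 2 stood apart on genes other than the pancreatic enzymes. Retnlb, a secreted goblet cell product, read 9.65 on KO 2 and 2.16 to 2.38 on the other arrays, while the goblet mucin Muc2 read 13.95 on KO 2, within the range of the rest. The islet peptide gene Iapp, which some gut endocrine cells also use, read 5.97, 5.43 and 5.42 in KO and 5.50, 6.69 and 5.92 in WT, with no excess on KO 2. These genes were picked out after their values were seen.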
